A study of Ovis aries with 9 samples.

Results

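The genes described here are mitosis and G2/M genes, the genes a cell switches on to prepare for division and to carry it out. A list of 42 symbols was set, and each symbol was looked up by its exact name in the gene table of the series. The table held 33 of the 42 among its 39157 genes, each on 1 row, and these 33 genes are described below. MKI67, CCNB1, BUB1B, BUB3, CENPA, CENPE, KIF11, KIF23 and NUSAP1 had no row under these symbols and were not analysed here. The cells were granulosa cells (GCs), which line the ovarian follicle and nourish the oocyte. They were taken from small follicles of thin-tailed Han ewes that were at least 1 year old, pooled over many abattoir ovaries and cultured. All cultures were held without glucose and serum and then received glucose for 24 h at 0 mM (CON, the group without glucose), 8.4 mM (LOW) or 33.6 mM (HIGH). Each group had 3 libraries, which are cultures of pooled cells and not separate animals. The p-values below set a group difference against the variation between such cultures, pooled over the 3 groups in the main fit, and not between animals.

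A dividing cell passes from DNA replication through G2 into mitosis when cyclin A and cyclin B bring the kinase CDK1 to activity. CDC25 phosphatases remove the inhibitory phosphates from CDK1, and Aurora and Polo-like kinases help to build the spindle. The spindle assembly checkpoint holds the cell in metaphase until each chromosome is attached, after which the anaphase promoting complex (APC/C) with CDC20 marks cyclin B and securin for destruction and separase cuts cohesin. Many of the genes are transcribed in the same window of the cycle, under FOXM1 and the MYB and DREAM complexes, and are little expressed in resting cells. Granulosa cells of growing follicles divide and leave the cycle when they luteinize. In bulk libraries such as these, fewer dividing cells and less RNA of these genes per cell cannot be told apart.

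Expression was measured as FPKM, the fragments per kilobase of transcript set against the mapped fragments of the library, and is given below as scaled FPKM, after a scaling of the libraries to a common median over the 11689 genes that reached an FPKM of 1 in every library. An FPKM of 1 stood for 48.0 to 71.3 fragments per kilobase, depending on the library. The libraries differed in composition. Genes of small RNAs took 30.2%, 50.7% and 68.2% of the summed FPKM in HIGH replicates 1, 2 and 3, against 52.0% to 68.6% in CON and 67.0% to 72.1% in LOW. Assembled loci took 42.4%, 19.6% and 7.03% in the same HIGH libraries, against 4.17% to 9.71% in the other 6. Of 18 granulosa markers 14 had a row, with CYP11A1, which starts steroid synthesis, at 141 to 202, the inhibin subunit INHA at 8.53 to 20.2 and the FSH receptor FSHR at 0.228 to 0.577. AMH, CYP19A1, FOXL2 and INHBB had no row. The summed granulosa markers lay between 389 and 472 in all 9 libraries. Markers of stroma and smooth muscle were also high, with the collagen gene COL3A1 at 323 to 484 and the smooth muscle actin gene ACTA2 at 703 to 951, while 6 endothelial markers summed to at most 1.01 and CDH5 was listed at 0.

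All 33 genes were expressed. Each reached an FPKM of 0.1 in all 9 libraries, and their mean scaled FPKM over the libraries had a median of 5.62, against 1.36 for the 24365 genes tested. The mean was above 10 for 8 genes, between 3 and 10 for 13 and under 3 for 12. ANLN, NCAPG and BIRC5 stood highest with means of 42.2, 22.3 and 15.9, and FOXM1 stood lowest with 0.501. The genes lay on 16 chromosomes, 5 of them on chromosome 1 and 4 on chromosome 13. Coordinates below are those of the deposited tables, whose genome build is not given in the sources used here.

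**Figure D1:**
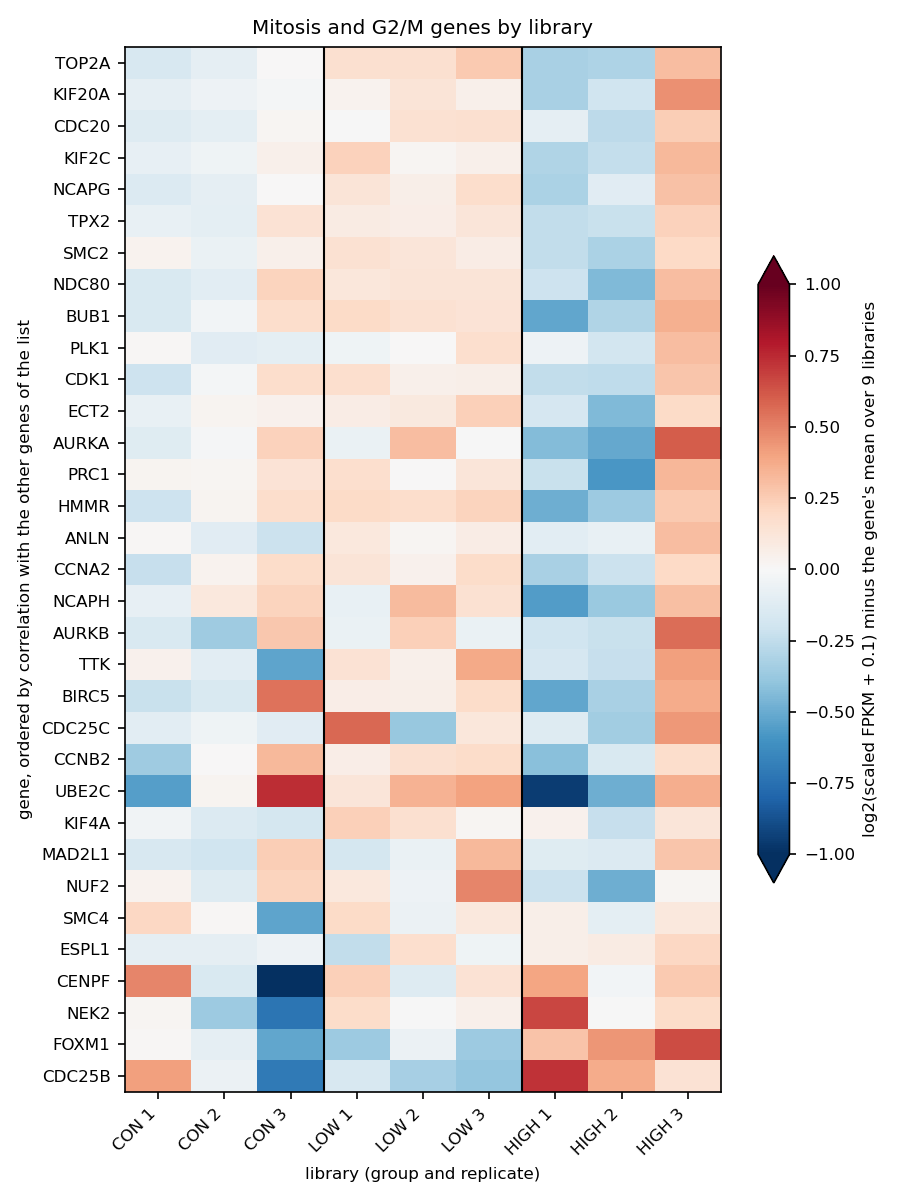
Level of each of the 33 mitosis genes (rows) in each of the 9 libraries (columns), as log2(scaled FPKM + 0.1) minus the mean of the gene over the libraries, with red above and blue below that mean and colours ending at 1 either way. Rows are ordered by how closely a gene followed the others; HIGH replicate 3 is above the mean for 33 of 33 genes, while HIGH replicates 1 and 2 are below it for 26 and 30.

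No gene of the list passed the test in any of the 3 comparisons, in limma, where a call needed an absolute log2 fold change above 1 and a Benjamini-Hochberg (BH) adjusted p under 0.05. That test called 0.00821% of all genes, 2 of 24365, in each comparison. The groups nevertheless differed in how alike their libraries were. The level averaged over the 33 genes, as mean log2(scaled FPKM + 0.1), was 2.29 ± 0.03 in CON, 2.43 ± 0.03 in LOW and 2.31 ± 0.29 in HIGH (SD over 3 libraries). The wide SD of HIGH came with 1 library, replicate 3, at 2.64, while replicates 1 and 2 lay at 2.17 and 2.12.

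The cyclins that drive mitosis followed this picture. CCNA2, which encodes cyclin A2 and acts from S phase to early mitosis, had a scaled FPKM of 9.74, 11.7 and 13.1 in CON, 12.5, 11.8 and 13.03 in LOW and 9.11, 9.85 and 13.2 in HIGH. The 3 groups overlapped, with HIGH replicate 1 the lowest library and HIGH replicate 3 the highest. CCNB2, a B-type cyclin, was at 7.10, 9.13 and 11.4 in CON, 9.55, 10.2 and 10.3 in LOW and 6.78, 8.16 and 10.3 in HIGH. CON spread here as widely as HIGH, and the 3 LOW values lay within the range of CON. CDK1, the kinase that both cyclins bind, was at 3.85, 4.40 and 5.07 in CON, 5.04, 4.63 and 4.67 in LOW and 3.75, 3.74 and 5.45 in HIGH. HIGH replicates 1 and 2 lay below the other 7 libraries, and HIGH replicate 3 was the highest of the 9. The log2 difference of LOW versus CON was 0.12 for CCNA2, 0.14 for CCNB2 and 0.11 for CDK1, each smaller than its standard error (SE) of 0.17, 0.20 and 0.18.

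Of the 2 phosphatases, only CDC25B clearly departed from the cyclins. CDC25B, which activates CDK1 at the entry into mitosis (gene ENSOARG00000001274, chromosome 13, 50726486 to 50734786), was at 14.6, 10.5 and 6.67 in CON, 9.79, 8.71 and 8.36 in LOW and 18.2, 14.2 and 12.1 in HIGH. Its 3 HIGH values lay above its 3 LOW values without overlap, while CON ran from the lowest value of all, in replicate 3, to 14.6. HIGH was 1.63-fold LOW (log2 0.71, SE 0.26), with an unadjusted p of 0.0239 and an adjusted p of 0.621 in limma. Against CON the log2 difference was 0.53 (SE 0.26), with an adjusted p of 0.651. CDC25C, the other phosphatase of this kind, was lower, at 0.839 to 1.72 over the 9 libraries, and its lowest and highest values were both in LOW.

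FOXM1, the transcription factor of many G2/M genes (gene ENSOARG00000011054, chromosome 3, 210883197 to 210893395), was the lowest of the list and the gene that differed most in HIGH. Its scaled FPKM was 0.484, 0.444 and 0.304 in CON, 0.352, 0.459 and 0.352 in LOW and 0.609, 0.688 and 0.811 in HIGH. Its 3 HIGH values lay above the 6 values of CON and LOW without overlap, and CON and LOW overlapped each other. HIGH was 1.58-fold CON (log2 0.66, SE 0.26, 95% interval 0.07 to 1.25), with an unadjusted p of 0.0320. Against LOW it was 1.65-fold (log2 0.72, SE 0.26), with an unadjusted p of 0.0223. After adjustment over all genes neither difference passed, with adjusted p of 0.651 and 0.621 in limma. The gene rested on 15.9 to 38.9 fragments per kilobase of transcript in a library, the fewest of the list. LOW versus CON gave a log2 difference of -0.06 (SE 0.26).

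Of the 5 mitotic kinases, only NEK2 clearly departed from the cyclins. AURKA, which matures the centrosomes and the spindle poles, was at 1.96, 2.14 and 2.54 in CON, 2.04, 2.68 and 2.14 in LOW and 1.57, 1.48 and 3.32 in HIGH. HIGH held both its lowest values and its highest, with HIGH replicate 3 2.25-fold HIGH replicate 2. AURKB, the kinase of the chromosomal passenger complex, was at 1.44, 1.24 and 1.97 in CON, 1.54, 1.93 and 1.54 in LOW and 1.398, 1.37 and 2.43 in HIGH, also with HIGH replicate 3 at the top and the groups overlapping. PLK1, which acts at mitotic entry and in spindle assembly, varied least of these kinases, at 5.32, 4.85 and 4.91 in CON, 5.12, 5.27 and 5.95 in LOW and 5.07, 4.64 and 6.55 in HIGH. The log2 differences of these 3 kinases between groups lay between -0.19 and 0.13, all within 1 SE of 0.

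NEK2, a centrosome kinase (gene ENSOARG00000011466, chromosome 12, 69915816 to 69927483), had a scaled FPKM of 1.26, 0.939 and 0.706 in CON, 1.42, 1.23 and 1.28 in LOW and 2.02, 1.23 and 1.42 in HIGH. The highest of its 9 values was in HIGH replicate 1 and the lowest in CON replicate 3, and HIGH and CON overlapped only where CON replicate 1 exceeded HIGH replicate 2. HIGH was 1.56-fold CON (log2 0.64, SE 0.26), with an unadjusted p of 0.0334 and an adjusted p of 0.651 in limma. TTK, the kinase that starts the spindle checkpoint, was at 2.48, 2.23 and 1.63 in CON, 2.67, 2.49 and 3.15 in LOW and 2.12, 2.04 and 3.22 in HIGH. Its 3 LOW values lay just above its 3 CON values without overlap, and CON replicate 3 was the lowest of the 9. The gap came with the antisense transcript TTK-AS1, since TTK-201 alone was at 2.67, 2.17 and 2.86 in LOW and 2.48, 2.23 and 1.63 in CON, which overlap. LOW versus CON gave a log2 difference of 0.43 for NEK2 and 0.39 for TTK, with SEs of 0.26 and 0.23. These were the largest differences of the list in that comparison, and neither passed (limma, adjusted p = 1.000 for both).

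Of 4 checkpoint genes 2 had a row. BUB1, a kinase at the kinetochore, was at 1.96, 2.15 and 2.48 in CON, 2.52, 2.44 and 2.42 in LOW and 1.497, 1.76 and 2.83 in HIGH. LOW was tight, CON lay partly inside it, and HIGH held the lowest 2 values and the highest. MAD2L1, which encodes the checkpoint protein MAD2, was at 7.51, 7.31 and 9.96 in CON, 7.42, 8.02 and 10.5 in LOW and 7.70, 7.63 and 10.2 in HIGH, and in each group replicate 3 was above the other two by about as much. All 3 groups overlapped for MAD2L1, and its log2 differences were between -0.02 and 0.07.

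The genes that act with the APC/C and separase were all measured. CDC20, the activator that brings substrates to the APC/C, was at 7.60, 7.76 and 8.45 in CON, 8.32, 9.28 and 9.33 in LOW and 7.80, 6.92 and 9.90 in HIGH. LOW replicate 1 lay between the CON values, LOW replicates 2 and 3 lay above them, and HIGH spanned the whole range. UBE2C, the ubiquitin-conjugating enzyme of the APC/C (gene ENSOARG00000006520, chromosome 13, 74125917 to 74129104), was at 6.37, 9.54 and 15.7 in CON, 10.2, 11.99 and 12.4 in LOW and 4.80, 6.65 and 12.1 in HIGH. It was the gene with the widest HIGH spread after AURKA, with coefficients of variation (CV) of 44.9% in CON, 10.1% in LOW and 48.2% in HIGH, and the groups overlapped. Its HIGH versus LOW difference was the most negative of the list (log2 -0.65, SE 0.37), with a 95% interval of -1.48 to 0.18. ESPL1, which encodes separase, was at 2.01, 2.02 and 2.07 in CON, 1.80, 2.44 and 2.09 in LOW and 2.25, 2.29 and 2.51 in HIGH. HIGH lay above CON without overlap but with a log2 difference of only 0.20 (SE 0.16), and LOW overlapped both.

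The kinetochore gene CENPF had the widest spread of the list within CON, with a CV of 54.6%. The other kinetochore genes, NUF2 and NDC80, had CVs of 12.6% and 15.1% in CON. CENPF, a large kinetochore and nuclear matrix protein (gene ENSOARG00000008368, chromosome 12, 67064453 to 67123889), was at 5.75, 3.65 and 1.71 in CON, 4.82, 3.72 and 4.52 in LOW and 5.38, 3.99 and 4.89 in HIGH. CON held both the highest and the lowest of the 9 values, 3.37-fold apart, and LOW and HIGH lay inside that range. NUF2, a subunit of the NDC80 complex that grips microtubules, was at 6.24, 5.54 and 7.12 in CON, 6.56, 5.87 and 8.59 in LOW and 5.22, 4.31 and 6.16 in HIGH. Its LOW values were high in replicate 3 and its HIGH values low in replicate 2, with 1 HIGH value above 1 LOW value. HIGH versus LOW gave a log2 difference of -0.41 (SE 0.19), with an unadjusted p of 0.0581 and an adjusted p of 0.632 in limma. Its partner NDC80 ranged from 1.74 to 3.00 and overlapped between all groups.

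BIRC5, which encodes survivin, a subunit of the chromosomal passenger complex that also belongs to the inhibitors of apoptosis, was at 13.2, 13.9 and 22.6 in CON, 16.2, 16.1 and 17.6 in LOW and 10.8, 12.4 and 20.02 in HIGH. Replicate 3 was the highest of CON and of HIGH, and the 3 LOW values lay within both of these ranges. Its log2 differences were 0.05 for LOW versus CON, -0.21 for HIGH versus CON and -0.26 for HIGH versus LOW, with an SE of 0.26 for each.

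Motor and spindle genes were among the most alike within CON and LOW. KIF20A, a kinesin of the central spindle and cytokinesis, was at 10.4, 10.6 and 10.9 in CON, 11.3, 12.1 and 11.4 in LOW and 8.81, 9.60 and 15.2 in HIGH. CON was below LOW without overlap, by a small step, while HIGH ran from the lowest value to the highest. The other kinesins, KIF2C and KIF4A, ranged from 1.02 to 1.63 and from 2.19 to 3.07, with KIF4A in LOW above CON without overlap. TPX2, which activates AURKA and nucleates spindle microtubules, was at 13.4, 13.3 and 15.7 in CON, 15.0, 14.8 and 15.4 in LOW and 11.9, 12.1 and 16.6 in HIGH. LOW and CON overlapped, and HIGH again held both ends. PRC1, which bundles the central spindle, ranged from 3.66 to 6.99, and HMMR, a spindle-associated hyaluronan receptor, from 6.35 to 10.8, both with the highest value in HIGH replicate 3.

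ANLN, which encodes the contractile ring protein anillin, was the most abundant of the list, at 42.2, 38.8 and 36.1 in CON, 45.3, 42.6 and 44.2 in LOW and 38.9, 39.9 and 51.9 in HIGH. LOW lay above CON without overlap, and HIGH replicate 3 lay above all the others. The log2 difference of LOW versus CON was 0.17 (SE 0.14), or 1.13-fold. ECT2, which activates RhoA at the cleavage furrow, ranged from 2.93 to 4.74, also with LOW above CON without overlap.

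Condensins and topoisomerase shape the chromosomes for segregation. TOP2A, the topoisomerase that untangles sister chromatids (gene ENSOARG00000014321, chromosome 11, 40139425 to 40229252), was at 11.4, 12.01 and 12.8 in CON, 14.3, 14.3 and 15.4 in LOW and 10.2, 10.3 and 15.9 in HIGH. The 3 LOW values lay above the 3 CON values without overlap, HIGH replicates 1 and 2 were the lowest of the 9, and HIGH replicate 3 was the highest. LOW was 1.21-fold CON (log2 0.28, SE 0.17, 95% interval -0.11 to 0.66), with an adjusted p of 1.000 in limma. That SE pools the spread of all 3 groups, and it was 0.10 without HIGH replicate 3. SMC4, a core condensin subunit, was at 7.75, 6.74 and 4.62 in CON, 7.66, 6.41 and 7.23 in LOW and 6.99, 6.24 and 7.22 in HIGH, with CON replicate 3 well below the other 8. SMC2, its partner, ranged from 6.15 to 8.86, NCAPG from 17.7 to 27.1 and NCAPH from 1.696 to 3.19. In LOW, SMC2 and NCAPG lay above CON without overlap, and all 5 genes of this class had a lower fitted mean in HIGH than in LOW, with log2 differences of -0.06 to -0.34.

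**Figure D2:**
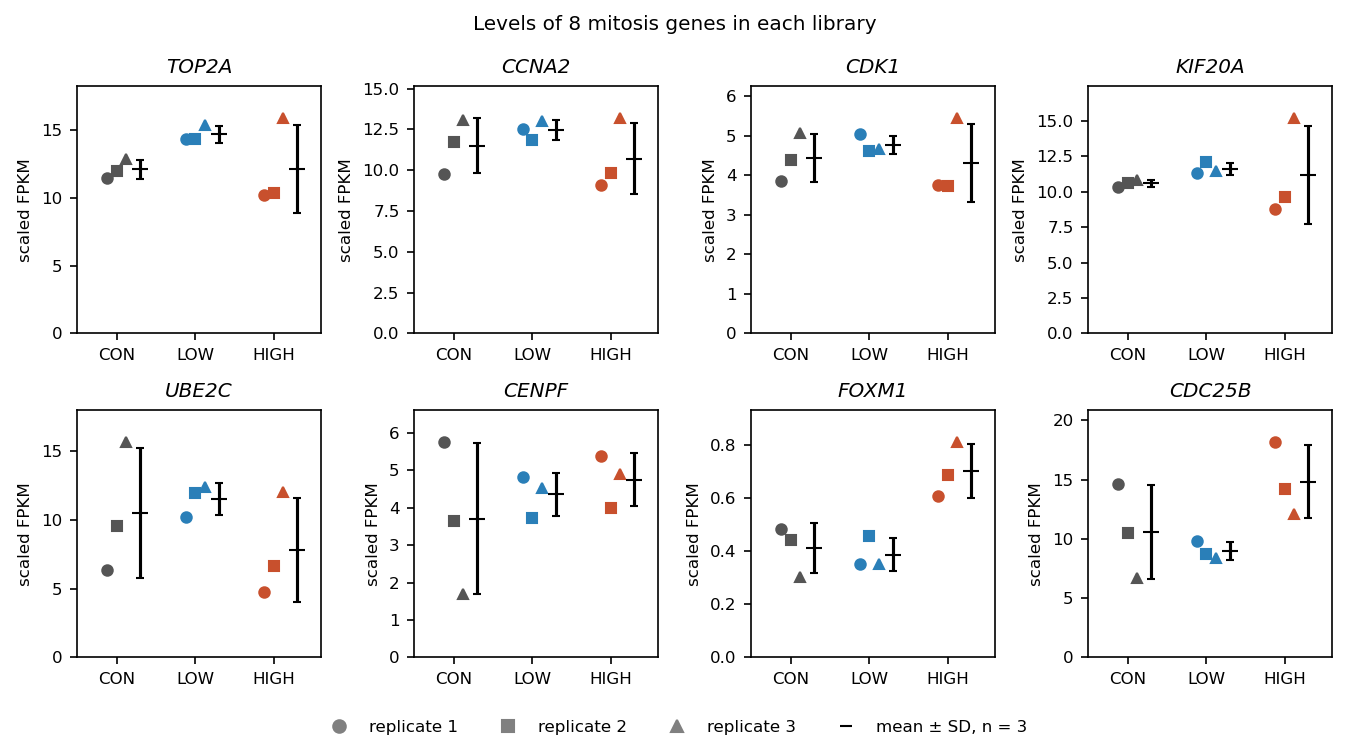
Scaled FPKM (vertical axis, from 0) of 8 of the genes in the CON, LOW and HIGH groups; symbols are libraries by replicate number and black bars are the mean ± SD of 3 libraries. TOP2A, CDK1 and KIF20A have 1 HIGH library above and 2 below the other groups, CCNA2 has its lowest and its highest value in HIGH, UBE2C and CENPF spread widely within CON, and FOXM1 is higher in all 3 HIGH libraries than in the other 6.

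LOW versus CON compares 8.4 mM glucose with none. The fitted mean was higher in LOW for 31 of 33 genes and lower for CDC25B and FOXM1, with a median log2 difference of 0.14, against 0.01 for all genes tested, of which 51.4% were higher. In the main fit no gene passed with or without adjustment (limma, lowest unadjusted p = 0.126, lowest adjusted p = 0.9999), where an unadjusted p under 0.05 was reached by 0.928% of all genes in the higher direction and 0.903% in the lower. Other fits gave other counts. TOP2A reached such a p in the higher direction without HIGH replicate 3 (1.05% of all genes) and with only the 2 groups fitted (0.915%). CENPF and NEK2 did so without CON replicate 1 (2.61%). Without CON replicate 3, CDC25B reached it in the lower direction (1.80%). Without overlap, LOW was higher than CON for 8 of 33 genes, TTK, KIF20A, KIF4A, ANLN, ECT2, SMC2, NCAPG and TOP2A, against 3.00% of all genes tested, and it was lower without overlap for 0 of 33, against 3.06%. For TTK the groups overlapped once its antisense transcript was left out, while the annotated transcripts of KIF4A, SMC2 and TOP2A alone stayed without overlap. The differences of these 8 genes were small, from 0.11 to 0.39 on the log2 scale. This count moved with the scaling and with the CON libraries. On FPKM as deposited, without scaling, 24 of 33 genes were higher in LOW, with a median of 0.03 where all genes had a median of -0.09, and 1 of 33 was higher without overlap, against 1.44% of all genes. Without CON replicate 3, 20 of 33 did not overlap in the higher direction (9.62% of all genes), and without CON replicate 1, 11 of 33 (10.9%).

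HIGH versus CON sets the highest glucose against none. The fitted mean was higher for 16 genes and lower for 17, with a median of -0.02, against 0.07 for all genes. FOXM1 and NEK2 reached an unadjusted p under 0.05, both higher in HIGH, which is 2 of 33 where 4.10% of all genes did so in that direction. No gene reached it in the lower direction, where 2.67% of all genes did. The count of 2 fell to 0 without CON replicate 2, without CON replicate 3, without scaling and with only the 2 groups fitted, where 2.45% to 2.61% of all genes were higher with such a p. Without overlap HIGH was higher for FOXM1 and ESPL1, again 2 of 33, against 5.20% of all genes, and lower for 0 of 33, against 4.19%. On 75th percentile scaling the split was 19 higher to 14 lower, with a median of 0.04 where all genes had 0.12, and without scaling it was 12 to 21, with a median of -0.07 where all genes had 0.03.

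HIGH versus LOW compares the 2 glucose levels. The fitted mean was lower in HIGH for 27 of 33 genes, with a median of -0.17, against 0.06 for all genes, of which 44.5% were lower. Without scaling 23 of 33 were lower, with a median of -0.11 where all genes had 0.11. On scaled values the 6 genes with a higher mean were CDC25B, FOXM1, AURKB, NEK2, ESPL1 and CENPF. CDC25B and FOXM1 reached an unadjusted p under 0.05, both higher in HIGH (2 of 33, where 5.21% of all genes did so), and these were also the 2 that were higher without overlap (11.2% of all genes), while 0 of 33 were lower without overlap (7.77%). None of the 27 lower genes reached it, where 2.46% of all genes did in that direction. The count of 2 higher genes fell to 0 without LOW replicate 3 (2.98% of all genes higher). It fell to 1 without LOW replicate 1 or 2 and without HIGH replicate 1, 2 or 3. NUF2 reached such a p in the lower direction without LOW replicate 2 (1.42% of all genes) and without CON replicate 3 (4.67%). Each pair of these comparisons has a group in common, CON, LOW or HIGH, so the 3 sets of differences are not independent of each other.

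The precision of these differences can be read from their intervals. These rest on a spread pooled over the 3 groups, so the HIGH libraries also shape the intervals of LOW versus CON. The 95% interval reached 0.30 to 0.83 on the log2 scale to either side of the estimate, with a median reach of 0.44. It lay within 1 of 0, a fold change of 2 either way, for 30 of 33 genes in LOW versus CON, 28 in HIGH versus CON and 30 in HIGH versus LOW. The intervals that ran past 1 were those of NEK2, UBE2C and CENPF in the first comparison, of these 3 with CDC25B and FOXM1 in the second, and of CDC25B, FOXM1 and UBE2C in the third. Differences within 0.5 of 0 could be bounded for fewer genes, 7, 12 and 5 of 33 in the 3 comparisons.

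**Figure D3:**
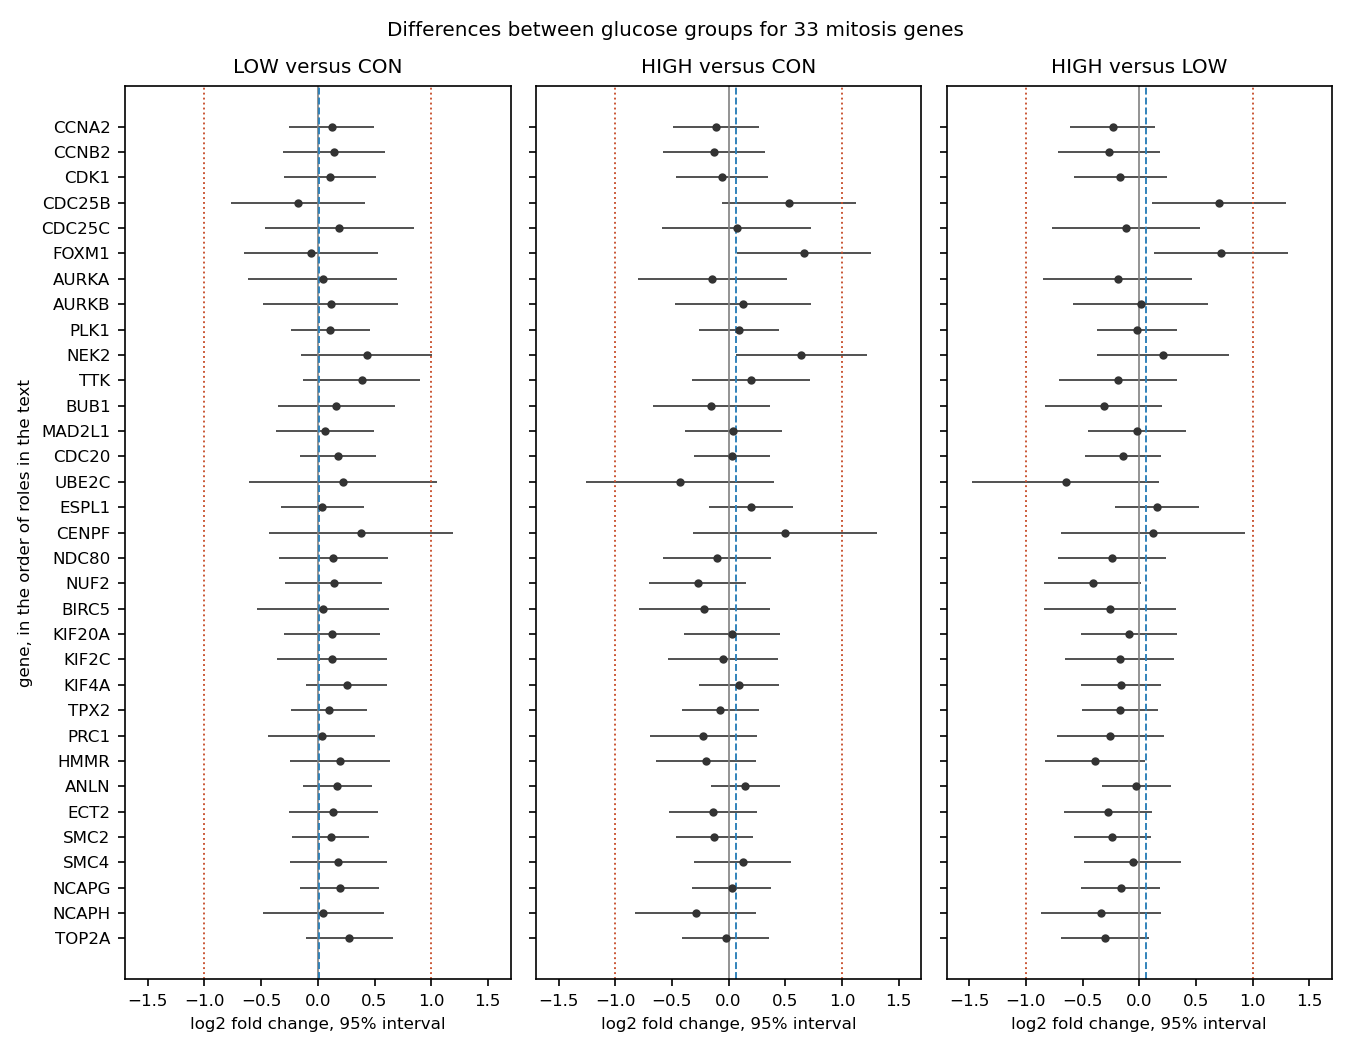
Log2 fold change (horizontal axis, first group over second) of the 33 mitosis genes with its 95% interval, in the 3 comparisons. Red dotted lines mark a fold change of 2 and the blue dashed line the median of all genes tested; 30, 28 and 30 of the 33 intervals stay within the red lines, and most points lie right of 0 in LOW versus CON and left of it in HIGH versus LOW.

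One library decided much of what HIGH showed. HIGH replicate 3 was the highest of the 3 HIGH libraries for 30 of 33 genes, the exceptions being CDC25B, NEK2 and CENPF, and the highest of all 9 libraries for 20. HIGH replicate 1 was the lowest of the 9 for 12 genes and HIGH replicate 2 for 10. The summed scaled FPKM of the 33 genes was 239, 238 and 259 in CON, 266, 262 and 277 in LOW, and 220.1, 219 and 305 in HIGH. Replicate 3 of HIGH was thus above the other 8 libraries, and replicates 1 and 2 were below them. Over the genes, HIGH replicate 3 exceeded HIGH replicate 1 by a median of 0.53 on the log2 scale, where the median over all genes was -0.09. The difference was largest for UBE2C, at 1.31, and AURKA, at 1.04. The median CV over the genes was 22.8% in HIGH, 12.6% in CON and 7.38% in LOW.

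The comparisons with HIGH were therefore also fitted without HIGH replicate 3. That library was singled out because these same genes were high in it, so leaving it out lowers their HIGH values by construction. The shares of all genes were not chosen in this way. The counts and p-values of these fits, here and for HIGH versus CON, describe the dependence on 1 library and are not evidence of a difference. HIGH versus LOW then had a median of -0.34 over the 33 genes (0.09 over all genes), and 16 genes were lower with an unadjusted p under 0.05, where 7.07% of all genes were. CDC25B was the only gene higher with such a p (8.93% of all genes). Without overlap, 24 of 33 genes were lower in the 2 remaining HIGH libraries, against 22.2% of all genes. TOP2A had a log2 difference of -0.51 (SE 0.12, unadjusted p = 0.00225), HMMR one of -0.62 (SE 0.15) and UBE2C one of -1.01 (SE 0.33). None of the 33 passed the adjusted test in limma, where the lowest adjusted p was 0.200 and 0.0123% of all genes were called.

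HIGH versus CON without that library had a median of -0.23 over the list. In the lower direction 6 of 33 genes had an unadjusted p under 0.05 (6.48% of all genes), namely PRC1, HMMR, NCAPH, AURKA, UBE2C and SMC2, and 16 did not overlap (13.5%). In the higher direction 1 gene, NEK2, had such a p (7.20%). No gene of the list was called, where 0.0205% of all genes were. The lowest adjusted p was 0.339 in limma, for PRC1, with a log2 difference of -0.47 (SE 0.16). Without HIGH replicate 1 or 2 in turn, the median of HIGH versus CON was 0.06 and that of HIGH versus LOW -0.08 and -0.07.

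Values that moved with the HIGH libraries are given here, and their part in the result was not tested. The small RNA share and the assembled loci put HIGH replicate 3 within the range of CON and LOW, and HIGH replicates 1 and 2 outside it. The 6 smooth muscle markers with a row, of 8, summed to 1769.5, 2369 and 3266 in HIGH, against 2347 to 4013 in CON and 2887 to 3233 in LOW. Epithelium markers, 5 with a row, summed to 32.1, 38.6 and 47.1 in HIGH, against 42.1 to 70.0 in CON and 47.4 to 53.6 in LOW. Theca and luteal markers, 3 with a row, summed to 6.71, 7.59 and 8.27 in HIGH, against 6.61 to 8.05 in CON and 7.94 to 8.32 in LOW. The 9 stroma markers summed to 3185, 3274 and 3241 in HIGH, without the step between HIGH libraries seen for the mitosis genes. They summed to 2754 to 3260 in CON and 2994 to 3145 in LOW, so all 3 HIGH sums lay above LOW. Of these 9, 3 were higher and 1 lower with an unadjusted p under 0.05 in HIGH versus CON (4.10% and 2.67% of all genes). In HIGH versus LOW 3 were higher and 1 lower as well (5.21% and 2.46%). The 14 granulosa markers summed to 439, 434 and 389 in HIGH, against 443 to 472 in CON and 419 to 442 in LOW. HIGH replicate 3 was thus the lowest library for the granulosa markers.

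**Figure D4:**
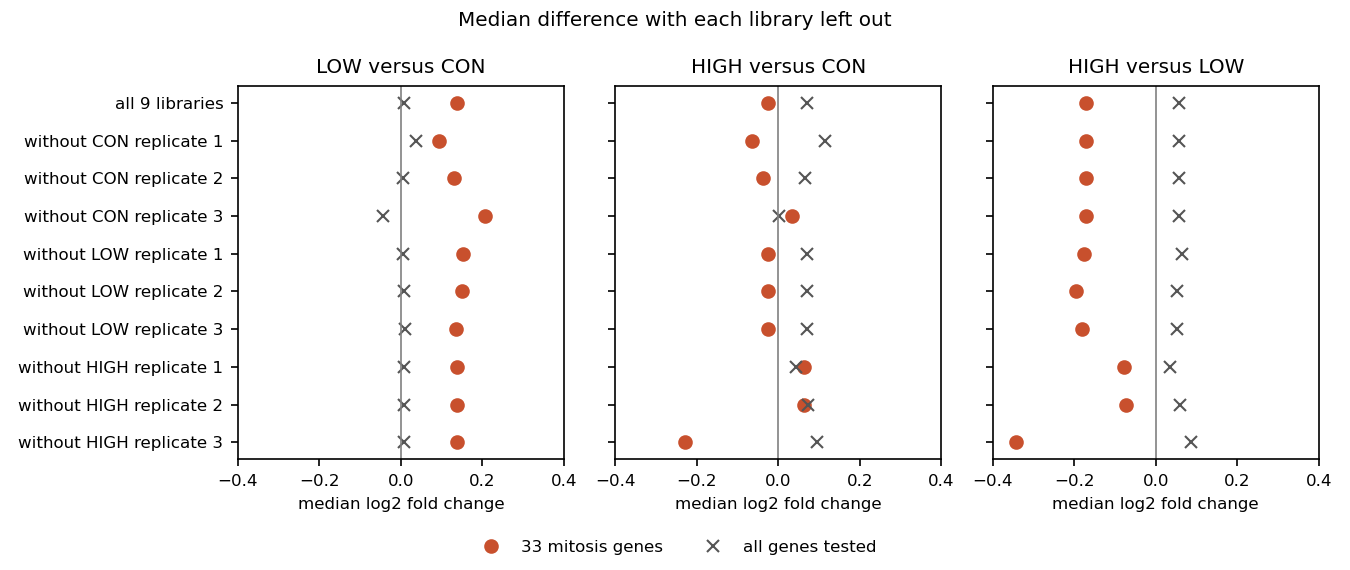
Median log2 fold change (horizontal axis) over the 33 mitosis genes (red circles) and over all genes tested (grey crosses), with all 9 libraries and with each library left out in turn, in the 3 comparisons. Leaving out HIGH replicate 3 moves the median of the mitosis genes to -0.23 in HIGH versus CON and to -0.34 in HIGH versus LOW, while the median of all genes stays within 0.12 of 0.

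CON also held libraries that disagreed, with large differences in both directions and more genes higher in replicate 3. Within CON, replicate 3 was the highest library for 23 genes and the lowest for 9. Among the 9 libraries of all groups, CON replicate 3 was the lowest for 7 genes and the highest for 3. From CON replicate 1 to CON replicate 3 the log2 difference was -1.69 for CENPF, -1.12 for CDC25B, -0.75 for NEK2, -0.74 for SMC4 and -0.57 for TTK. It was 1.28 for UBE2C, 0.77 for BIRC5 and 0.68 for CCNB2. Over the whole list the median of this difference was 0.14, with 23 genes higher and 10 lower, and over all genes it was -0.15. From CON replicate 2 to CON replicate 3 the median was 0.12, with 24 genes higher and 9 lower, and over all genes -0.05. Within LOW, replicate 3 was the highest library for 15 genes and the lowest for 4. Whether the replicate 3 libraries shared an effect was not tested. Without CON replicate 1, 4 genes were higher in HIGH than in CON with an unadjusted p under 0.05, CDC25B, NEK2, CENPF and FOXM1, where 16.1% of all genes were, and the lowest adjusted p was 0.176 in limma.

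The genes varied together over the libraries, with exceptions. Pearson's r between a gene and the mean of the other 32 over the 9 libraries was above 0.5 for 27 of 33 genes. It was highest for TOP2A, at 0.95, KIF20A, at 0.94, and CDC20, at 0.92. It was below 0 for CDC25B, at -0.50, FOXM1, at -0.10, NEK2, at -0.07, and CENPF, at -0.02, and it was 0.16 for ESPL1 and 0.18 for SMC4. Of 528 pairs of genes 413 had an r above 0, with a median of 0.58, and 28 had an r below -0.5. All these points share the same 9 libraries, HIGH replicate 3 among them, and their scaling, so the values are a description.

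Most genes had a single transcript in the tables. The 33 genes held 48 transcripts, 22 genes had 1 and 11 had several, and the gene FPKM equalled the sum over its transcripts for 33 of 33. BIRC5 was split between an assembled transcript, with 61.8% of its level, and the annotated BIRC5-201, with 38.2%. ANLN was split between ANLN-201, with 58.9%, and ANLN-202, with 41.1%. CDK1 was mostly CDK1-201, with 76.2% of its level, yet in LOW replicate 3 this transcript was at 1.01 while the assembled TCONS_00181383 was at 1.97. Antisense or overlapping transcripts were counted into TOP2A, KIF4A, TTK, SMC2 and TPX2, with 1.35% to 5.11% of the level of the gene over the 9 libraries. TTK-AS1 was listed at 0 in the 3 CON libraries and took 12.7% and 9.27% of TTK in LOW replicates 2 and 3 and 15.0% in HIGH replicate 3. Whether the counting used the strand is not stated, so reads of a gene and its antisense partner cannot be told apart.

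Other genes of the cell cycle were taken from lists kept apart from the 33. Of 61 further mitosis genes 53 had a row, and their median log2 differences were 0.11 for LOW versus CON, -0.00 for HIGH versus CON and -0.09 for HIGH versus LOW. Over all genes tested these medians were 0.01, 0.07 and 0.06. None passed the adjusted test in limma. The cohesin gene SMC3, lower in HIGH than in LOW, was the only one with an unadjusted p under 0.05 (log2 -0.32, unadjusted p = 0.0203). Such a p in that direction was reached by 2.46% of all genes. Their summed scaled FPKM was 319, 329 and 379.9 in CON, 344, 342 and 374 in LOW and 291, 292 and 369 in HIGH. HIGH replicate 3 stood above HIGH replicates 1 and 2 in this sum too, but CON replicate 3 was the highest of the 9. Of 46 genes of S phase and replication 40 had a row. Their median log2 difference was 0.02 for LOW versus CON, with 23 of 40 higher, -0.14 for HIGH versus CON, with 30 of 40 lower, and -0.18 for HIGH versus LOW, with 29 of 40 lower. Of all genes 51.4% were higher in the first comparison, and 43.7% and 44.5% were lower in the others. Without overlap, 8 of 40 were lower in HIGH than in LOW, against 7.77% of all genes, and 1 was higher, against 11.2%. They summed to 302, 338 and 415 in CON, 348, 375 and 373 in LOW and 275, 289.7 and 376 in HIGH. RRM2, the ribonucleotide reductase subunit of S phase, was at 11.6, 11.4 and 10.4 in CON, 14.0, 14.4 and 14.8 in LOW and 9.06, 9.54 and 13.1 in HIGH. It was lower in HIGH than in LOW (log2 -0.46, unadjusted p = 0.0128) and higher in LOW than in CON (log2 0.37, unadjusted p = 0.0349), and passed neither test after adjustment, with adjusted p of 0.5997 and 1.000 in limma. MCM7, a subunit of the replicative helicase, was higher in HIGH than in CON, against the direction of most of its list (log2 0.33, unadjusted p = 0.0496).

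None of the other regulators passed the adjusted test in limma. The 10 of 16 APC/C subunits with a row summed to 124, 127 and 139 in CON, 137, 136 and 133 in LOW and 110.5, 112 and 128 in HIGH. Of these, 9 of 10 had a lower fitted mean in HIGH than in LOW, against 44.5% of all genes, with a median of -0.29. ANAPC5 was the subunit with the smallest p in HIGH versus LOW (log2 -0.34, unadjusted p = 0.0432) and in HIGH versus CON (log2 -0.33, unadjusted p = 0.0489). Of 8 CDK inhibitors 5 had a row. CDKN2D, which blocks CDK4 and CDK6, was at 2.10, 1.62 and 1.78 in CON, 1.04, 1.45 and 0.882 in LOW and 3.41, 2.26 and 1.77 in HIGH. It was higher in HIGH than in LOW (log2 1.05, SE 0.27, unadjusted p = 0.00338), with an adjusted p of 0.5997 in limma, and lower in LOW than in CON (log2 -0.68, unadjusted p = 0.0324). CDKN1A, the p21 gene, was abundant at 184 to 245, with no unadjusted p under 0.05. Among 7 of 8 G1 cyclins and CDKs CCND3 was lower in HIGH than in CON (log2 -0.47, unadjusted p = 0.0388), and none of the 18 genes with a row, of 20, of the RB, E2F and DREAM complexes reached such a p in any comparison.

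**Figure D5:**
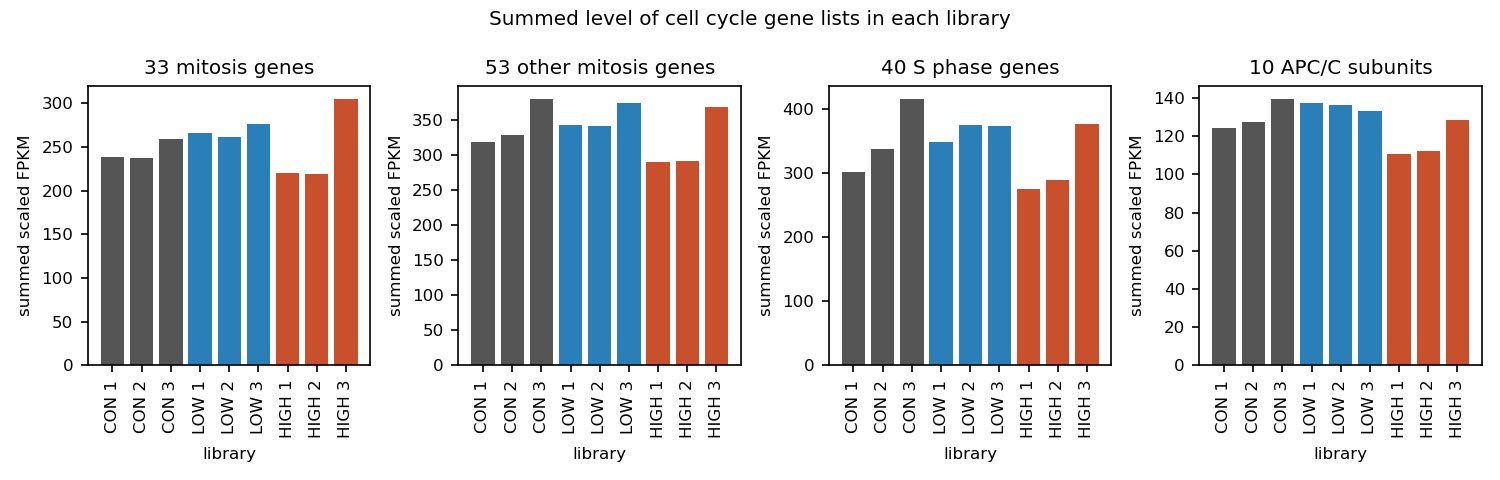
Summed scaled FPKM (vertical axis, from 0) of the 33 mitosis genes, 53 other mitosis genes, 40 S phase genes and 10 APC/C subunits in each of the 9 libraries, coloured by group. In all 4 panels HIGH replicate 3 stands above HIGH replicates 1 and 2, but it is the highest library only for the 33 mitosis genes.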

How the data were processed

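RNA of 9 libraries of ovine granulosa cells, 3 per glucose group, was depleted of ribosomal RNA and sequenced in pairs. The authors aligned the reads with Hisat2 and assembled transcripts with Stringtie, and deposited FPKM per gene and per transcript; the submitters' processing notes also name HTSeq 0.6.0, TopHat2 and STAR 2.5.1b. The genome build is not given in the sources used here. The deposited count tables hold a score, not reads: in 97.6% to 98.9% of single-transcript genes the value lay within 3% of FPKM times genomic span times 1 factor per library. They were used only to read the depth, so count tests planned as alternatives could not be run. Of the value columns 0 were left without a sample.

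Scaled FPKM were tested as log2(FPKM + 0.1) with limma 3.58.1 in R 4.3.3, with a trend of variance on mean level, all 9 libraries and the 3 groups in 1 model. Fold changes are of the first group over the second on this scale, which understates low genes. Genes shorter than 300 bases in span, or under an FPKM of 0.1 in more than 6 libraries, were left out; 24365 were tested, all 33 mitosis genes among them, and p-values were BH adjusted over all of them. A call needed a fold change above 1 in absolute log2 and an adjusted p under 0.05. Groups without overlap were counted beside it. The procedure was tested on simulated data. Alternatives were another pseudocount, other filters, no scaling, 75th percentile scaling, 2 groups only, no trend, a replicate block and leaving out each library.

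Per-library values were given for genes of a rule: 17 central mitosis genes, the 3 with the smallest p in each comparison and those with the highest and lowest mean. The others were given by range. The genes, lists and rules were chosen with earlier results of these data known. Tables and plots were made with Python 3.11.15, pandas 2.3.3 and matplotlib 3.10.9.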

Additional observations from a re-analysis of the deposited data

How the results depend on the processing

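No gene of the 33 passed the adjusted test under any of the 17 alternatives in any comparison, and the lowest adjusted p in limma was 0.176; with an FPKM minimum of 1 FOXM1 was not tested. Of 99 differences, 56 kept their direction in all 17. The count of all genes called, 2 in each comparison, became 1 in LOW versus CON, 3 in HIGH versus CON and 1 in HIGH versus LOW with an FPKM minimum of 1, and 1 in HIGH versus CON and 6 in HIGH versus LOW when only the compared groups were fitted. With libraries left out in turn it ranged from 2 to 5, from 2 to 8 and from 2 to 5. The median over the 33 genes ranged from 0.0925 to 0.206 in LOW versus CON, from -0.229 to 0.0637 in HIGH versus CON and from -0.342 to -0.0718 in HIGH versus LOW with libraries left out, and was 0.0349 in LOW versus CON without scaling. The mean log2 level of the 33 genes was 2.63, 2.74 and 2.64 in CON, LOW and HIGH with a pseudocount of 1, and 2.34 in CON and 2.38 in LOW without scaling. With the replicate number as a block 4 genes were called in LOW versus CON and 4 in HIGH versus CON, none of the 33 among them. The numbers were not taken as pairs in the main fit, since the labels do not say that equal numbers belong together. Of 9 same-numbered pairs 5 had a correlation of deviations above 0.1 (range -0.03 to 0.42). The 18 other pairs ranged from -0.44 to 0.15. For 6 of 9 libraries the closest library carried their own number, and whether replicates shared an effect was not tested. Under the block, 3 of the 33 were higher and 1 lower with an unadjusted p under 0.05 in HIGH versus CON (8.07% and 6.99% of all genes). In HIGH versus LOW 2 were higher and 3 lower (8.81% and 7.22%). edgeR and DESeq2 were not run, since no table held reads. Groups of 3 libraries and SEs of 0.14 to 0.37 limit what can be seen; FOXM1, with 15.9 to 38.9 fragments per kilobase, is the least sure.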
